A study of Mus musculus with 4 samples.

Results

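PACAP and VIP are related peptide messengers that share their receptors, and 5 genes encode the pair and its receptors: the ligands Adcyap1 and Vip and the receptors Adcyap1r1, Vipr1 and Vipr2. Members were the probe sets whose only gene symbol in the probe annotation was one of these names. All 5 genes were found, on 6 of the 28856 probe sets of the array, and each gene is represented by the probe set selected on the highest mean over the arrays. They are 5 of the 19938 genes compared. The set was also chosen from earlier results of these data, with the higher level of Adcyap1r1 in the knockout known, so the values of that gene are given as a description, with no p-value.

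The samples were testes of male mice, 2 labelled Lhcgr KO and 2 labelled control WT. The knockout lacks the receptor for luteinizing hormone, the pituitary hormone that drives testosterone synthesis in Leydig cells. Both groups had received busulfan, an alkylating drug that depletes germ cells, at 44 mg/kg, and were killed 4 weeks later, so no untreated testis enters any comparison. The labels give no age or strain, do not describe the knockout allele, and do not say whether the 2 replicates of a group came from separate animals. P-values therefore measure the spread between these arrays, which may be technical.

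PACAP binds the receptor encoded by Adcyap1r1, called PAC1, with high affinity, and binds both VIP receptors, VPAC1 and VPAC2, about as well as VIP does. VIP binds PAC1 only weakly. All of these receptors belong to the secretin family of G protein-coupled receptors and raise cyclic AMP through Gs and adenylyl cyclase, and PAC1 can also act through phospholipase C. In the testis, PACAP is known as a peptide of developing germ cells, PACAP receptors have been described on Sertoli and Leydig cells, and VIP is known from nerve fibres.

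Array medians were 215 and 208 intensity units on knockout replicates 1 and 2, and 206 and 198 on wild-type replicates 1 and 2. Both knockout medians were thus above both wild-type medians. The lowest value was 16 on every array. The targeted gene Lhcgr is not analysed here, and the genotype labels have no check from it. All 12 Sertoli cell markers measured at least 8.86 log2 intensity units on every array. The control arrays differed from each other. Markers of the epididymis and rete testis, the ducts that carry sperm out of the testis, summed to 7669 intensity units on wild-type replicate 2 and to between 1207 and 1312 on the other 3 arrays; Spink11, a protease inhibitor gene of that list, measured 10.71 there and 5.43 to 5.54 elsewhere. Spermatid markers summed to 2104 on wild-type replicate 1 and to between 1070 and 1248 on the other 3. The fold changes of the genes named and the counts of calls were also computed without each of these arrays.

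The sequences at the gene starts differed between ligands and receptors. The promoters of Adcyap1r1, the receptor gene with the large difference, and of both ligand genes are shown because only the ligand windows hold the cyclic AMP response element letters TGACGTC, among the 6 RefSeq windows (GRCm38.p6, 250 bases before to 50 after a start) listed for the 5 genes. Capitals mark TGACGTC, the TATA box letters TATAAA or the GC box letters GGGCGG on either strand. All were searched on both strands, and the first is contained in the full palindromic element, TGACGTCA.
Adcyap1r1, chr6:55451728-55452027, plus strand: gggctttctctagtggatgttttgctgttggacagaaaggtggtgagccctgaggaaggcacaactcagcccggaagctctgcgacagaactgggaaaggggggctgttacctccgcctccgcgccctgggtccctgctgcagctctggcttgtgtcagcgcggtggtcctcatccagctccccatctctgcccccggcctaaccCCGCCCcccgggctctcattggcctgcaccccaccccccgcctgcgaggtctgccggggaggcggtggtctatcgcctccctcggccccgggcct
Adcyap1, chr17:93198918-93199217, plus strand: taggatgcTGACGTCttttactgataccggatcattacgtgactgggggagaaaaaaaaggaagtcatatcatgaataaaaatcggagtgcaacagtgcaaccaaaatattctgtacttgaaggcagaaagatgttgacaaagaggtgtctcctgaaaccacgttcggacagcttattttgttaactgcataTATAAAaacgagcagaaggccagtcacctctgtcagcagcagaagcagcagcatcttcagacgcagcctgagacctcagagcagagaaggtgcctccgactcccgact
Vip, chr10:5638968-5639267, plus strand: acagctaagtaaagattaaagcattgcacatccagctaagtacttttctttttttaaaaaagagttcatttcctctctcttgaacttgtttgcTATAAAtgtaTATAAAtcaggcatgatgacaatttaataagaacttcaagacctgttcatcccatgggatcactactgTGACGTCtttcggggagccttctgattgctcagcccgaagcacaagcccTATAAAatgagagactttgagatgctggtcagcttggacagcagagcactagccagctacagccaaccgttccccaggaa
In Vip the letters TGACGTC stood at -79 to -73 relative to the listed start, with TATAAA at -30 to -25 and at 2 further places upstream. In Adcyap1 they stood at -242 to -236 of the window shown, with TATAAA at -58 to -53, and the same TGACGTC copy stood at -91 to -85 of a second, overlapping window. TGACGTC occurs in 3.21% of the 32851 windows of this length in the table and the full palindrome in 1.79%, and no member window held the full palindrome. The windows of Adcyap1r1, Vipr1 and Vipr2 held neither TGACGTC nor TATAAA, and each held GGGCGG, which occurs in 35.7% of windows, against 13.6% for TATAAA. The Adcyap1r1 copy stood at -45 to -40 on the opposite strand. The receptor windows were 67.3% (Adcyap1r1), 73.7% (Vipr1) and 65.3% (Vipr2) G or C, and the ligand windows 45.7% (Adcyap1, as shown) and 41.7% (Vip). A match describes letters and does not show that a factor binds there.

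The comparison of knockout with wild type asks which genes depend on the luteinizing hormone receptor in testes 4 weeks after busulfan. How far germ cells were depleted was not tested. Adcyap1r1, the PACAP receptor gene, was about 2.51-fold higher in the knockout, while the ligand genes and both VIP receptor genes had smaller differences that did not pass the test. In all, 1 of the 5 genes passed (limma, Benjamini-Hochberg adjusted p under 0.05 over all genes). Over all genes 3.10% passed, 0.963% with a higher and 2.14% with a lower value in the knockout. As the set was chosen with this call known, the count is a description. Probe sets differ in brightness for reasons other than RNA amount, so levels are compared between arrays and not between genes.

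Adcyap1r1 (probe set 10538482) measured 8.74 and 8.73 log2 intensity units on knockout replicates 1 and 2, and 7.55 and 7.27 on wild-type replicates 1 and 2. On the linear scale these are 428 and 425 intensity units against 187 and 154. Both knockout arrays were well above both wild-type arrays, and the wild-type pair was farther apart than the knockout pair. The means were 8.74 ± 0.0067 (SD, n = 2) and 7.41 ± 0.20, a log2 fold change of 1.33 ± 0.13 (SE, unadjusted 95% confidence interval 1.01 to 1.65), or 2.51-fold with an interval of 2.02 to 3.13. These intervals take no account of the choice of the gene with its higher level known, and are a description. Leaving out wild-type replicate 1 gave a log2 fold change of 1.47, and leaving out wild-type replicate 2, the array with epididymal signal, one of 1.19. Without knockout replicate 1 or 2 the change was 1.33 each time and the gene was no longer called, and then 18 and 23 genes in all were called in place of 618.

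**Figure D1:**
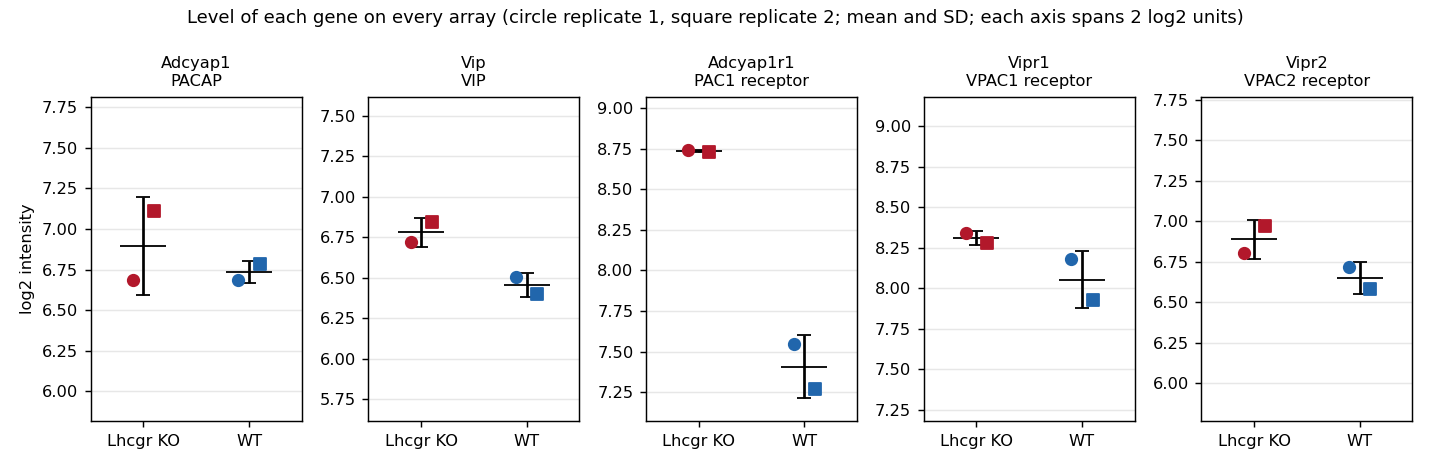
Each panel plots the log2 intensity of 1 gene on the 4 arrays (red, Lhcgr knockout; blue, wild type; circle, replicate 1; square, replicate 2), with the group mean and SD in black; every vertical axis spans 2 log2 units. The knockout points of Adcyap1r1, at 8.74 and 8.73, lie far above its wild-type points at 7.55 and 7.27, and the other 4 genes show small gaps or overlap.

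Vipr1 (probe set 10590381) encodes VPAC1, the VIP and PACAP receptor best known from epithelia and lymphocytes. It measured 8.34 and 8.28 log2 intensity units in the knockout and 8.18 and 7.93 in wild type. The groups did not overlap, but the gap between them was smaller than the distance within the wild-type pair. The log2 fold change was 0.26 ± 0.13 (SE, 95% confidence interval -0.05 to 0.57, limma adjusted p = 0.275), and it was 0.13 without wild-type replicate 2. A second, weaker probe set of Vipr1 (10590365) measured 7.20 and 7.38 in the knockout and 7.34 and 7.38 in wild type, with overlapping groups and a change of -0.07 ± 0.12. The 2 probe sets thus differed in sign, and their average had a change of 0.09.

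Vipr2 (probe set 10399046) encodes VPAC2, the receptor through which VIP acts in smooth muscle and in the circadian clock. Its values were 6.80 and 6.97 log2 intensity units in the knockout against 6.72 and 6.58 in wild type. The knockout arrays were higher without overlap, by less than the knockout arrays differed from each other. The log2 fold change was 0.24 ± 0.12 (95% confidence interval -0.06 to 0.53, adjusted p = 0.286). It was 0.11 after quantile normalization and 0.16 without knockout replicate 2.

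Adcyap1 (probe set 10447502), the PACAP gene, measured 6.68 and 7.11 log2 intensity units in the knockout and 6.69 and 6.78 in wild type. Knockout replicate 2 was high and replicate 1 was at the wild-type level, so the groups overlapped. The log2 fold change was 0.16 ± 0.16 (95% confidence interval -0.22 to 0.55, adjusted p = 0.545). It was -0.05 without knockout replicate 2, 0.37 without knockout replicate 1, 0.11 without wild-type replicate 1 and 0.04 after quantile normalization, so its direction rests on a single array.

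Vip (probe set 10367582), the VIP gene, measured 6.72 and 6.84 log2 intensity units in the knockout and 6.51 and 6.40 in wild type. The knockout arrays were higher without overlap. The log2 fold change was 0.33 ± 0.12 (unadjusted 95% confidence interval 0.05 to 0.61, adjusted p = 0.178), and 0.20 after quantile normalization. In all, 4 of the 5 genes had both knockout arrays above both wild-type arrays, which held for 36.8% of all genes, and all 5 had a log2 fold change above 0, which held for 60.6%. Weakly measured genes were shifted upwards in the knockout in general: the median log2 fold change was 0.17 in the 25% of genes with the lowest means, which holds Vip and Vipr2, 0.14 in the next 25%, which holds Adcyap1, and -0.03 in the 25% above them, which holds Adcyap1r1 and Vipr1. No detection calls were used, so whether Adcyap1, Vip and Vipr2 lie above background was not tested.

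**Figure D2:**
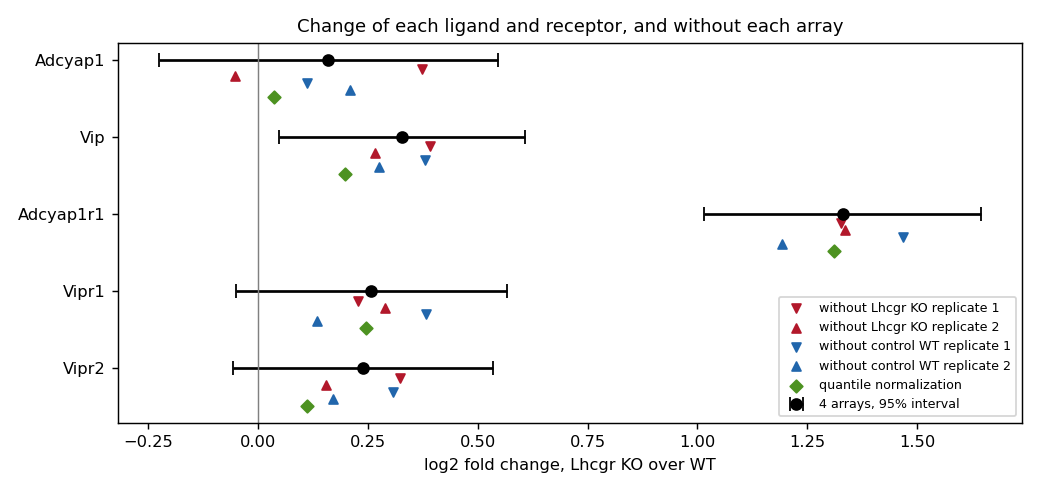
The horizontal axis gives the log2 fold change of knockout over wild type for each gene (rows), as a black point with its 95% confidence interval over 4 arrays, and, in colour, without each array or after quantile normalization. Adcyap1r1 stays between 1.19 and 1.47 in these, and Adcyap1 falls to -0.05 without knockout replicate 2.

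Differences between 2 probe sets on the same array cancel any scaling of that array, and only their change between groups carries meaning. Adcyap1r1 minus Vipr1 was 0.40 and 0.45 log2 units on the knockout arrays and -0.63 and -0.66 on the wild-type arrays. The groups were far apart and each pair was close; Adcyap1r1 and Vipr1 were both lower on wild-type replicate 2 than on replicate 1. The change of this difference was 1.07, and that of Adcyap1r1 minus Vipr2 was 1.09 (1.94 and 1.76 in the knockout, 0.83 and 0.69 in wild type). Vipr1 minus Vipr2 was 1.54 and 1.31 in the knockout and 1.46 and 1.35 in wild type, overlapping values with a change of 0.02. On these arrays both differences with Adcyap1r1 changed more than Vipr1 minus Vipr2. The set was chosen with the higher level of Adcyap1r1 known, so the differences are a description, given without a test. Subtraction does not remove a shift that depends on level, and the weaker Vipr1 probe set was not used here.

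Genes around the peptides and their receptors were taken from 11 lists with 107 genes, of which 101 were measured; the other 6 are not analysed here. Of the 101, 3 rose, 4 fell and 94 did not pass the test, beside 3.10% of all genes, and their median log2 fold change was 0.11 beside 0.07 for all genes. None of the 7 calls was kept without knockout replicate 1 or without knockout replicate 2. Without wild-type replicate 1, 10 genes were called, and without wild-type replicate 2, 11 were called, and 6 of the 7 were among them each time; Itpr3 was the one lost.

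The other peptides and receptors of the secretin family did not pass. None of 4 other ligand genes was called (median 0.20), the lowest p-values being those of Ghrh, growth hormone-releasing hormone (0.33 ± 0.12, adjusted p = 0.176), and Gcg, the glucagon precursor (0.26 ± 0.16, adjusted p = 0.339). Leaving out wild-type replicate 2 took Gcg to 0.058, and leaving out replicate 1 took it to 0.46. None of 12 other receptor genes was called, and their log2 fold changes ran from -0.73 to 0.37 with a median of 0.21. Calcrl, the receptor that pairs with receptor activity-modifying proteins to bind adrenomedullin and related peptides, had the lowest, at -0.73 ± 0.21 (adjusted p = 0.122; called without wild-type replicate 1, at -0.98), and the calcitonin receptor gene Calcr had 0.36 ± 0.11 (adjusted p = 0.144). None of the 3 genes of those partner proteins was called (Ramp1 at 0.32 ± 0.11, Ramp2 at 0.18 ± 0.11, Ramp3 at -0.26 ± 0.22). Among 9 genes of peptide processing and breakdown none passed. Pcsk1, a protease that cuts peptide precursors, had 0.34 ± 0.11 (adjusted p = 0.150) and Pam, which amidates the ends of PACAP and VIP, -0.49 ± 0.15 (adjusted p = 0.136; -0.31 without knockout replicate 2).

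Downstream of the receptors, no adenylyl cyclase, G protein, arrestin or receptor kinase gene passed. All 10 adenylyl cyclase genes had changes above 0 (median 0.24), from 0.0034 for Adcy9 to 0.51 ± 0.13 for Adcy7 (adjusted p = 0.107), with Adcy1 at 0.35 ± 0.11. A change above 0 held for 60.6% of all genes. Adcy1, Adcy3, Adcy4, Adcy8 and Adcy10 lay in the 50% of genes with the lowest means. Genes there were shifted upwards in general, with medians of 0.17 in the lowest 25% and 0.14 in the next 25%. Of 10 genes for G proteins, arrestins and receptor kinases, 4 were above 0 (median -0.12), with Gnai2, an inhibitory G protein, at -0.42 ± 0.11 (adjusted p = 0.110) and the arrestin Arrb2 at -0.48 ± 0.14 (adjusted p = 0.130; -0.32 without knockout replicate 2). On the phospholipase C branch, 2 of 6 genes fell. Plcb1, a phospholipase C that Gq activates, measured 7.26 and 7.63 log2 intensity units in the knockout and 8.94 and 8.53 in wild type, a change of -1.29 ± 0.19 (adjusted p = 0.0210). Itpr3, a calcium channel opened by inositol trisphosphate, measured 7.69 and 7.86 against 8.40 and 8.39, a change of -0.62 ± 0.12 (adjusted p = 0.0479), and it did not pass in 7 of 14 other settings.

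Phosphodiesterases, which break down cyclic AMP, held the largest differences of these lists. Of 16 genes 2 rose, 1 fell and 13 did not pass (median 0.23). Pde3b, a phosphodiesterase known from insulin action in fat and liver, measured 9.32 and 9.43 log2 intensity units in the knockout and 7.87 and 7.89 in wild type. Both pairs were tight and far apart, with a log2 fold change of 1.49 ± 0.11 (adjusted p = 0.00319). Pde8b, a high-affinity phosphodiesterase known in steroid-producing cells, measured 9.27 and 9.45 against 8.45 and 7.94, a change of 1.17 ± 0.18 (adjusted p = 0.0261) with the wild-type arrays apart from each other. Pde10a, which acts on cyclic AMP and cyclic GMP, measured 8.42 and 8.45 against 9.66 and 10.16, a change of -1.47 ± 0.17 (adjusted p = 0.0110).

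Of 9 cyclic AMP effector genes none passed (median 0.09). The lowest p-values belonged to regulatory subunits of protein kinase A, Prkar2a (0.62 ± 0.12, adjusted p = 0.0555) and Prkar2b (0.73 ± 0.16, adjusted p = 0.0693). Prkar2a passed in 7 and Prkar2b in 3 of 14 other settings, both without wild-type replicate 2. None of 8 genes of the CREB family and its cofactors, the transcription factors that cyclic AMP signalling activates, was called (median 0.05), with Creb1 at 0.20 ± 0.11 and Crtc3 at 0.25 ± 0.11. Of 14 genes known to be induced by cyclic AMP, 1 rose and 1 fell, and 4 were above 0 (median -0.23). Of all genes, 60.6% were above 0. Ppargc1a, a coactivator of mitochondrial genes, measured 8.61 and 8.87 log2 intensity units in the knockout against 7.69 and 7.62, a change of 1.09 ± 0.13 (adjusted p = 0.0115). Dusp1, a phosphatase of mitogen-activated kinases and an early response gene, measured 8.36 and 7.96 against 9.09 and 9.01, a change of -0.89 ± 0.16 (adjusted p = 0.0359). Genes of this list are induced by many signals, not by PACAP or VIP alone.

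**Figure D3:**
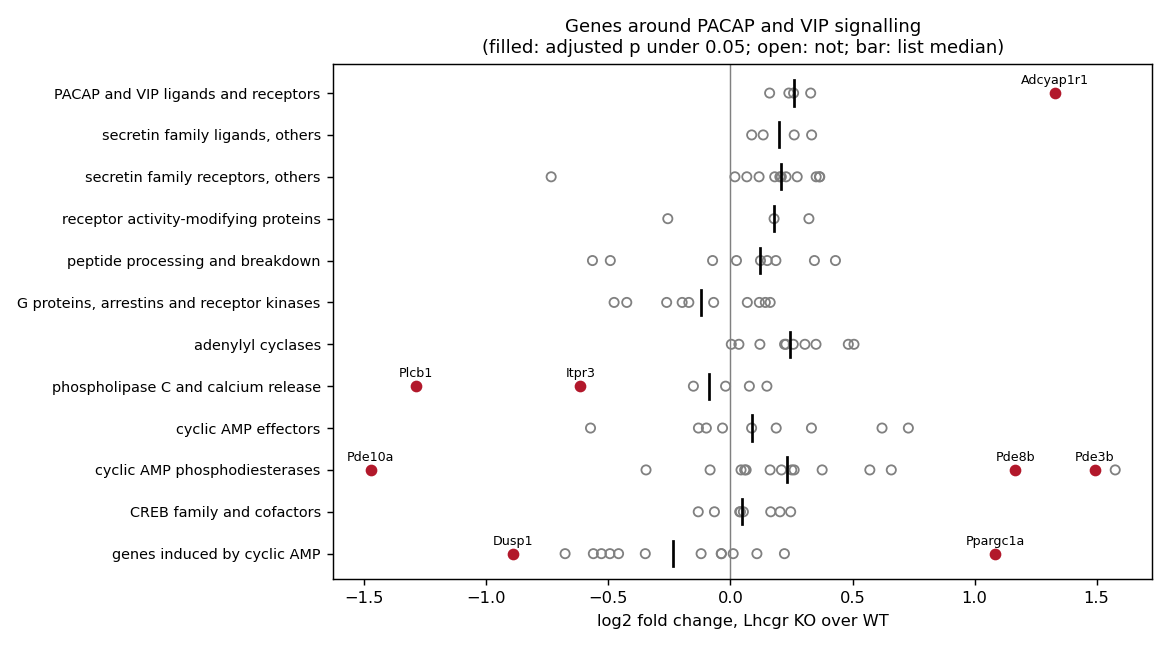
Each row is a list and each circle a gene, placed by its log2 fold change of knockout over wild type; filled and named circles passed the test (adjusted p under 0.05), open ones did not, and a bar marks the list median. Adcyap1r1 is the single filled circle of its row, at 1.33, and the phosphodiesterase row spans from -1.47 to 1.58.

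Among 9539 named genes with a mean at or above the median, those whose values over the 4 arrays ran closest to Adcyap1r1 were found by the root mean square difference of log2 values after each gene's mean was removed. Terc, the telomerase RNA, was closest, at 0.03 log2 units, with 11.21 and 11.13 on the knockout arrays and 10.002 and 9.66 on the wild-type arrays. Next came Arhgef4, a guanine nucleotide exchange factor, at 0.07, and Antxr1, an anthrax toxin receptor of the cell surface, at 0.10. Tbc1d30, a Rab GTPase-activating protein, was at 0.10, Ccdc68 at 0.11 and Cyp2s1, a cytochrome P450, at 0.12. Their log2 fold changes lay between 1.14 for Ccdc68 and 1.34 for Terc, as the measure selects. Pde8b and Pde3b, described above, ranked 8 and 9 by this measure, at 0.13 and 0.14, and were looked up after their changes were seen. Vipr1 ranked 970, at 0.54. With 4 arrays in 2 groups, many genes that differ between the groups resemble each other, and the likeness is a description of these arrays.

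**Figure D4:**
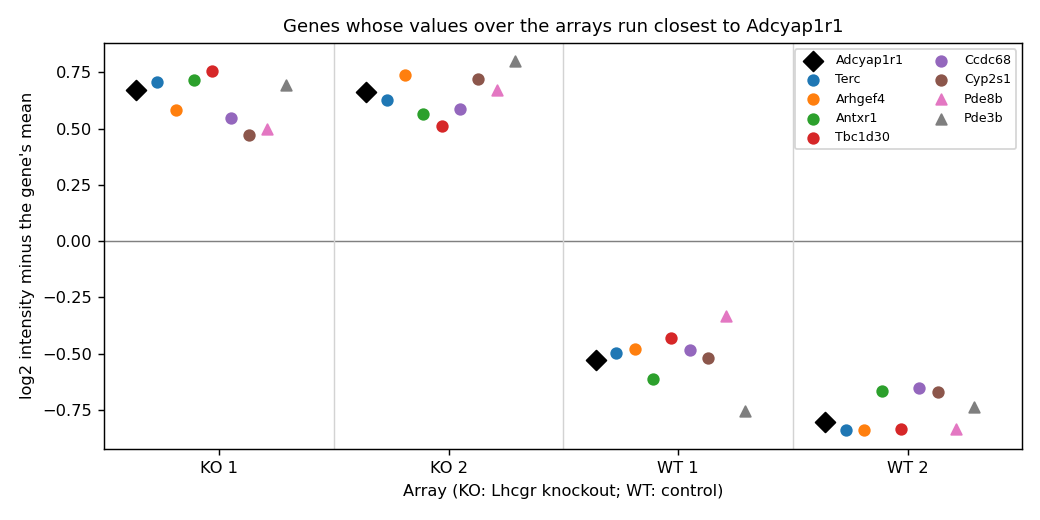
The vertical axis gives the log2 intensity minus the gene's own mean on each array (horizontal axis) for Adcyap1r1 (black diamonds), the 6 closest genes (circles) and Pde8b and Pde3b (triangles). All lie above 0 on both knockout arrays and below 0 on both wild-type arrays.

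Markers of other testis cells moved between the same arrays. Of 10 adult Leydig cell markers 7 fell, and their summed intensity was 3293 to 4075 in the knockout and 14035 to 25136 in wild type; Hsd3b6, a steroid dehydrogenase of adult Leydig cells, had the lowest change at -6.81 and Akr1c14 the highest at -0.36. Of 9 macrophage markers 5 fell, with sums of 4222 to 4484 against 7673 to 9404, from -1.55 for Lyz2 to -0.30 for Cx3cr1. Of 12 Sertoli cell markers 1 rose, with sums of 42672 to 43154 against 39633 to 42368, from -0.13 for Clu to 0.80 for Amh, the anti-Müllerian hormone. None of 8 Schwann cell or glia markers was called, with sums of 1572 to 1578 against 1374 to 1636 and changes from -0.49 for Erbb3 to 0.36 for Sox10. With wild-type replicate 2 left out Erbb3 was at -0.065, and with replicate 1 left out it was called at -0.92. Of 10 markers of neurons or nerve fibres 1 fell, with sums of 1656 to 1688 against 1877 to 1957, from -1.73 for the synaptic gene Snap25 to 0.41 for Dbh. None of 9 spermatid markers was called, with sums of 1116 to 1248 against 1070 to 2104, from -1.44 for Smcp to 0.33 for Akap4. Of 10 epididymal markers 1 fell (Epcam), with sums of 1207 to 1312 against 1217 to 7669, from -2.68 for Spink11 to 0.73 for Cst11. Spink11 was at -0.10 without wild-type replicate 2 and was called at -5.27 without replicate 1. Without wild-type replicate 2 the changes of Epcam, Akr1c14 and Cx3cr1 were -1.36, -0.13 and -0.19 in place of -2.06, -0.36 and -0.30. Clu was at -0.035 without wild-type replicate 1 and Akap4 at 0.14 without knockout replicate 2. Among the other marker lists, 1 of 8 for progenitor Leydig or interstitial cells rose (Thbs2, a matrix glycoprotein, 1.57), 1 of 7 for endothelial cells rose (Sox18, a transcription factor, 1.02), and none passed of 7 for peritubular or smooth muscle cells, 9 for spermatogonia, 8 for spermatocytes, 6 for T lymphocytes and 6 for mast cells. Dlk1, a progenitor marker that encodes a membrane protein of the Notch ligand family, had the highest change of its list, 3.21 ± 1.18 (adjusted p = 0.188). It measured 11.76 and 12.02 log2 intensity units in the knockout and 10.82 and 6.53 on wild-type replicates 1 and 2. Both knockout arrays were above both wild-type arrays, which were far apart. It was called at 5.36 without wild-type replicate 1 and at 1.07 without replicate 2. Igf1, a growth factor of that list, had -0.79 and was called at -1.28 without wild-type replicate 1, where the endothelial markers Cdh5 and Kdr were also called, higher and lower. Without wild-type replicate 2, 9 adult Leydig, 5 macrophage, 1 epididymal (Epcam) and 3 spermatid markers were lower; without wild-type replicate 1 these counts were 8, 8, 7 and 0, 2 glial markers were lower and Amh was not called. When knockout replicate 1 was left out, only Hsd3b6 and Ces1d of the adult Leydig markers were called, and no marker of another list was. The same held when knockout replicate 2 was left out instead. Thbs2, Sox18, Epcam, Ces1d, Dlk1, Igf1, Cdh5 and Kdr are named here after their values were seen. No marker was at 0 on any array, since the deposited values start at 16 intensity units. The part of these cell types in the difference of Adcyap1r1 was not tested, and in whole testis RNA a change in the share of a cell type and a change in RNA per cell cannot be told apart.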

How the data were processed

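Per the labels' protocols, testis RNA was made into biotin-labelled sense-strand cDNA and read on Affymetrix whole-transcript arrays of 1 colour. The deposited values are linear intensity units, 1 per probe set and array. The submitters' processing notes name the build mm9. How probes were summarized, background-corrected and scaled is not given in the sources used here.

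Of 28856 probe sets, 1621 have several gene symbols and 5446 none listed, and these were left out. The rest stand for 19938 genes, 999 of them with several probe sets, of which the one with the highest mean was used. Intensities were taken to log2 and fitted over all genes with limma 3.58.1 in R 4.3.3 (lmFit and eBayes, no covariates, two-sided, Benjamini-Hochberg threshold 0.05); the fit was tested on simulated data. Precision is limited by the number of arrays. The labels do not say that replicate numbers pair arrays, and no pairing was assumed. The replicate differences of the 2 groups correlated at 0.0205 over genes. With a lone difference in each group, this value cannot show whether arrays were paired. Promoter windows come from RefSeq on GRCm38.p6, which differs from mm9, and all 5 members matched.

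Members, lists and tests were chosen with earlier results of these data known. Named genes are the members; in each list up to 4 past the threshold with the largest change, or the 2 with the lowest p; the 6 closest to Adcyap1r1; and the extremes of 7 marker lists. Alternatives were other scalings, filters, probe set rules, eBayes settings, an added offset, a replicate block and leaving out each array.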

Additional observations from a re-analysis of the deposited data

How the results depend on the processing

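Over 14 other settings the log2 fold change of Adcyap1r1 lay between 1.18 with 32 added before log2 and 1.47 without wild-type replicate 1. It was 1.33 wherever only the filter, probe set rule, eBayes fit or replicate block differed, since these could not move it. Adcyap1r1 has 1 probe set and was chosen with its higher level known. Leaving out single arrays gave changes of 1.19 to 1.47 for it and -0.052 to 0.37 for Adcyap1, and 0 to 1 members, 0 to 11 pathway genes and 18 to 1039 genes in all called (2 to 313 higher, 16 to 726 lower). A fit from which an array is left out has a lone sample in a group, which is assumed to vary like the other group. The cause of the few calls without a knockout array was not tested. Vip, Vipr1, Vipr2 and Adcyap1 were called in none of the settings, and Vip and Vipr2 could not be tested with the lowest 25% or 50% of genes left out, nor Adcyap1 with 50% left out. With the arrays centred on their medians, the log2 fold change was 1.26 for Adcyap1r1, 0.26 for Vip and 0.19 for Vipr1. It was 0.17 for Vipr2 and 0.10 for Adcyap1, and 760 genes in all were called. With an intensity trend in eBayes, 11 pathway genes were called. The replicate block gave 572 genes in all in place of 618, and 1 member, as before. Among pathway genes, the block lost Itpr3 and added Pde7b. For Smcp, leaving out wild-type replicate 1 gave a log2 fold change of 0.041 and leaving out replicate 2 one of -2.91.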

Other observations

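Pde7b, a cyclic AMP phosphodiesterase singled out after its values were seen, had the largest log2 fold change of the pathway lists without passing the test. It measured 10.09 and 10.14 log2 intensity units on the knockout arrays and 7.98 and 9.09 on wild-type replicates 1 and 2. Its change of 1.58 had an adjusted p of 0.0595 in limma, with a range of 0.000154 to 0.329 over 14 other settings. Leaving out wild-type replicate 1 gave 1.02 and leaving out replicate 2 gave 2.13, and the gene passed the test both times.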
